A study of Vitis vinifera with 2 samples.

Results

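The leaf clusters without a size call are stretches of the grapevine genome to which small RNA of young leaf mapped, but for which no Dicer fragment size was assigned. They were chosen by their DicerCall, the size assigned to a cluster, which was N. Of the 89597 leaf clusters, 21458 carried this call (23.9%, 95% interval 23.7 to 24.2%), and the other 68139 had a size call of 20 to 24 nt. By strand, 6334 of the N clusters were on the plus strand, 6080 on the minus strand, and 9044 had no strand. Small RNA came from Vitis vinifera cv. 'Chardonnay', with 1 library of young leaf, pooled from several leaves, and 1 library of proliferating embryogenic callus (EC). EC is callus whose cells can develop into embryos; it had been raised from anthers, grew on solid medium in the dark and was pooled from several dishes. The input was 50 mg per tissue, and a gel fraction of 18 to 35 nt was sequenced. The clusters lie on the PN40024 12X assembly, which is another genotype than 'Chardonnay'.

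In plants, Dicer-like enzymes cut long double-stranded RNA into short interfering RNAs (siRNAs) of a few fixed lengths. The longest of these guide DNA methylation at transposable elements and the shorter ones mostly cleave or repress transcripts. ShortStack, the program that built the clusters, gives a size call when enough of the reads of a cluster fall in the Dicer range, and N otherwise. It gives a strand when a large enough share of the reads comes from one side. That share was not given in the sources used here, so a cluster with a strand can also hold reads from the other side. Double-stranded precursors yield reads from both sides, while fragments of a single transcript come from one.

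The call and the strand were therefore the values that chose and divided the clusters, and they are given as a description. The share of Dicer-sized reads behind each call was not in the lists, so clusters just inside and just outside the N threshold cannot be set side by side. The number of reads per cluster was unknown as well. The paper gives more mapped small RNA reads for EC than for leaf, and comparisons between the lists were not adjusted for this. With 1 library per tissue there was no replicate check and no test was made. Intervals are exact binomial for shares and order-statistic for medians, at 95%. They cover the counting of clusters only, and neighbouring clusters are not independent.

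An assigned strand was slightly more frequent among N clusters than among those with a size call. It was given to 57.9% of the N clusters (12414, interval 57.2 to 58.5%), against 55.2% of the clusters with a size call (54.8 to 55.6%). The 24 nt class stood at 53.9% and the 23 nt class at 64.7%, so the N clusters lay within the range of the size classes. In EC, 14.1% of 227847 clusters were N, and 50.3% of these 32154 had a strand.

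Clusters with a strand were shorter than those without. The median length was 50 bp (quartiles 27 and 93 bp) for N clusters with strand + or -, against 86 bp (50 and 123 bp) for N clusters with no strand. The difference of the medians was -36 bp, or -14 bp (-17 to -11 bp) among clusters longer than 30 bp. Among clusters with a size call the medians were 38 bp with a strand and 96 bp without, so the same ordering was not particular to N. All N clusters together had a median of 66 bp, as did the clusters with a size call. They covered 1786 kb, of which 889 kb lay in clusters with a strand and 897 kb in clusters without.

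The short N clusters fell into 2 groups by exact length. In the first, 770 clusters of 16 to 19 bp made up 3.59% of all N clusters, with 168, 233, 179 and 190 of them at 16, 17, 18 and 19 bp. A cluster this short cannot hold a read of 20 nt, so N is the only call it can get. Their strand, which their length does not fix, was assigned in 95.3% of them (interval 93.6 to 96.7%). In EC, 469 N clusters were that short and 99.6% of them had a strand. In leaf, 401 clusters were only 16 or 17 bp long, which is under the lower limit of the gel fraction.

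The second group stood at 25 and 26 bp. At 25 bp there were 991 N clusters with a strand and 81 without, and at 26 bp there were 670 and 104. The counts at 24 bp were much lower, at 156 with a strand and 42 without, where 8083 of the 8281 leaf clusters had a size call. The 2 lengths together held 1846 N clusters, which were 31.6% of all leaf clusters of 25 or 26 bp, and 89.98% of them had a strand, against 82.9% of the clusters with a size call of the same lengths. At shorter lengths the order was the other way, with 78.8% of N clusters against 97.01% at 24 bp, and 86.8% against 96.3% at 20 to 23 bp. A read as long as its cluster falls within the size range at 20 to 24 bp, but not at 25 or 26 bp. Neither the peak at 25 bp nor the order by strand is therefore free of the rule for the call. How many clusters hold only such reads is unknown. Beyond 26 bp the counts with a strand were lower, with 322 at 27 bp, 230 at 30 bp and 85 at 50 bp, while the counts without a strand stayed between 57 and 105.

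**Figure D1:**
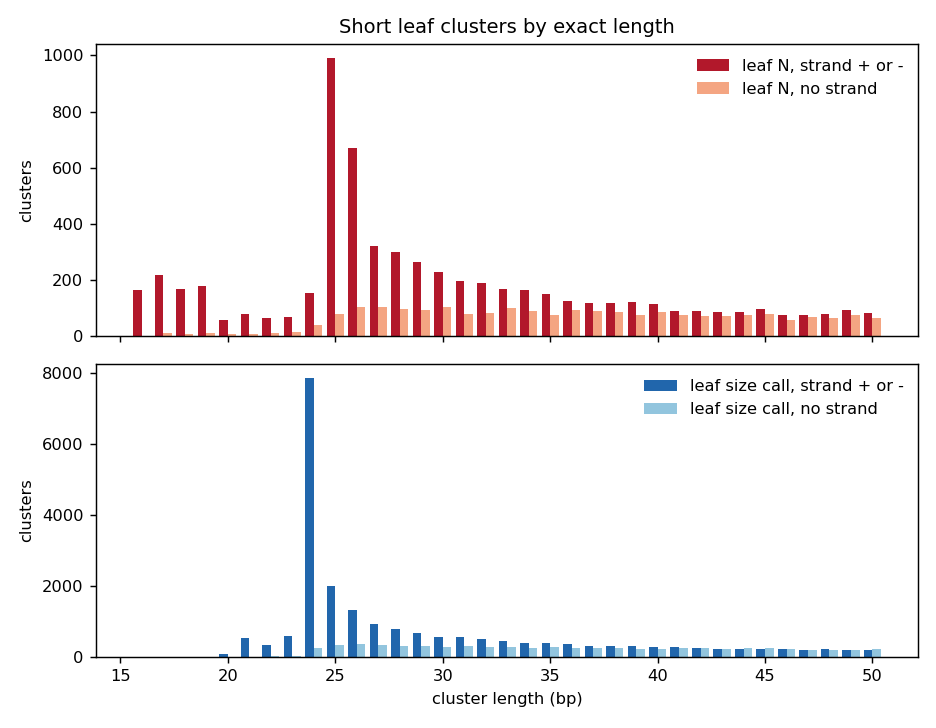
Number of leaf clusters (vertical axis) at each cluster length in bp (horizontal axis), for N clusters above and clusters with a size call below, with strand + or - in the dark bars and no strand in the light bars; the vertical scales differ. N clusters with a strand peak at 25 bp (991 clusters) with a lower plateau at 16 to 19 bp, and clusters with a size call peak at 24 bp.

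At greater lengths the share of clusters with a strand declined, and it was high again among the longest N clusters. It was 73.5% at 27 to 30 bp, 59.8% at 31 to 50 bp, 44.2% above 100 and up to 150 bp and 37.6% above 150 and up to 200 bp. Above 200 and under 500 bp it was 41.2% (38.1 to 44.3%), against 24.5% (23.4 to 25.7%) of the clusters with a size call. Of the 83 N clusters of at least 500 bp, 58 had a strand (69.9%), of which 29 were on each strand. Among the 573 clusters with a size call of that length, 115 had a strand (20.1%). The EC N clusters of at least 500 bp resembled those of leaf, with 57 of 80 stranded (71.3%).

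**Figure D2:**
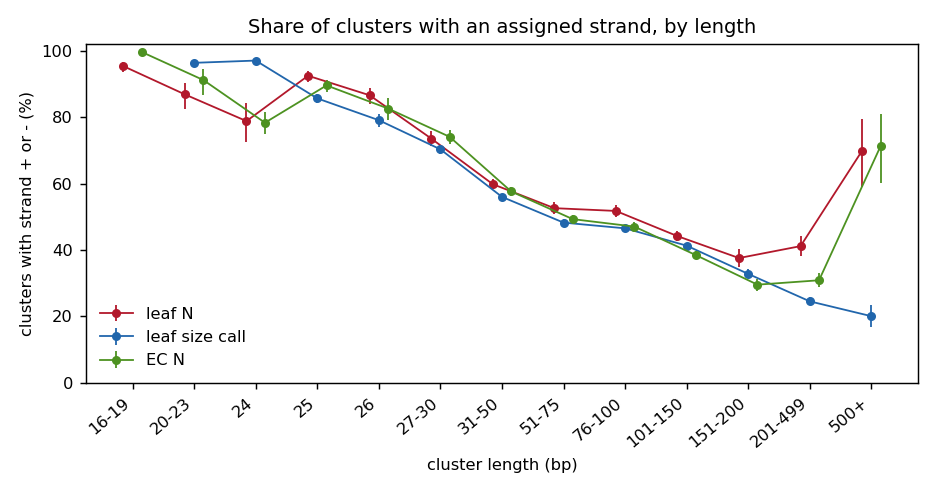
Percentage of clusters with strand + or - (vertical axis) by cluster length in bp (horizontal axis), for leaf N, leaf clusters with a size call and EC N; error bars are exact binomial 95% intervals. The lines run close together from 27 to 150 bp and part above 200 bp. At 500 bp or more leaf N stands at 69.9%, leaf clusters with a size call at 20.1% and EC N at 71.3%.

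Along the chromosomes, N clusters largely followed the other leaf clusters. The N share of leaf clusters was between 22.95% (chromosome 12) and 25.8% (chromosome 17) over the 19 chromosomes, 26.3% on chrUn, which holds unplaced sequence, and 20.8% over the 13 random sequences, whose place within their chromosome is unknown. The share of N clusters with a strand was between 54.3% (chromosome 10) and 62.2% (chromosome 6). The narrow ranges show that neither the call nor the strand belonged to a few chromosomes.

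Each chromosome was also divided into 5 equal parts. The N clusters numbered 4701, 4185, 2983, 3286 and 4221 from the first to the last part. The 2 outer parts held 46.5% of N clusters with a strand, against 45.4% of those with no strand, a difference of 1.10 percentage points with an interval of -0.33 to 2.52 that includes 0. Among clusters longer than 30 bp it was 1.73 points (0.14 to 3.31) and among those of at least 100 bp 2.97 points (0.35 to 5.58). The outer parts held 44.5% of the clusters with a size call and 37.1% of the EC N clusters. N clusters in leaf were thus sparsest in the middle of the chromosomes, and EC N clusters were not, with 17.1% of them in the first part and 21.2% in the middle one. Clusters with a size call differed likewise, with 15.7% in the middle part in leaf and 22.5% in EC. This difference between the lists was therefore not particular to N.

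In 474 windows of 1 Mb, the number of N clusters was 4 to 94 with a median of 44 (quartiles 31 and 57). Across windows it went with the number of clusters with a size call (r = 0.80, rho = 0.81). The relation was closer with 24 nt clusters (r = 0.79, rho = 0.80) than with 21 nt clusters (r = 0.32, rho = 0.46). The 21 nt class was much smaller, with 6109 clusters against 53573, so its counts per window were low. N clusters with and without a strand went together as well (r = 0.68, rho = 0.71). Leaf N and EC N clusters showed no such relation (r = 0.06, rho = 0.00), and neither did the clusters with a size call of leaf and EC (r = -0.04, rho = -0.07). These values describe windows that share the mappability of the sequence and, within leaf, 1 library.

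The 5 windows richest in N clusters lay on chromosome 18 from 12 to 13 Mb (62 with a strand, 32 without), chrUn from 17 to 18 Mb (56 and 36), chrUn from 23 to 24 Mb (59 and 32), chromosome 13 from 23 to 24 Mb (52 and 35) and chromosome 18 from 4 to 5 Mb (53 and 33). The 2 chrUn windows also had high N shares, 40.7% and 41.9% of their leaf clusters, against a median of 23.8% over the 468 windows with at least 50 leaf clusters. On chromosome 18 from 12 to 13 Mb the share was 28.0%, beside 242 clusters with a size call.

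N clusters stood farther from clusters with a size call than these stood from each other, and those with a strand stood farther than those without, though not at the shortest lengths. The median distance from an N cluster to the nearest leaf cluster with a size call was 1431 bp (interval 1394 to 1480 bp), against 937 bp (921 to 953 bp) for clusters with a size call. For N clusters it was 1689 bp (1621 to 1755 bp) with strand + or - and 1140 bp (1089 to 1196 bp) with no strand. Clusters with a size call had the same order with a smaller gap, at 1047 bp (1025 to 1074 bp) with a strand and 821 bp (799 to 842 bp) without. A size call lay within 500 bp of 29.4% of the N clusters, against 37.3% of the clusters with a size call and 35.4% of all leaf clusters. For N clusters that share was 26.1% with a strand and 33.9% without, and for clusters with a size call 34.9% and 40.3%. Distances over 10 kb were found for 9.38% of N clusters with a strand and 7.76% of those without, against 6.54% of clusters with a size call.

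The distance differed by length. At 16 to 19 bp the median was 3397 bp with a strand (3042 to 3860 bp) and 4928 bp without (2639 to 7909 bp), and at 20 to 23 bp it was 2746 and 4658 bp, so that the order was turned round, with 36 and 41 clusters without a strand. At 25 bp it was 1922 bp with a strand (1638 to 2121 bp) and 893 bp without (314 to 1557 bp). Among clusters with a size call, long ones lay close to others, with a median of 170 bp at 500 bp or more. N clusters with a strand did not follow this, as their median was 1561 bp above 200 and under 500 bp and 2100 bp (615 to 2971 bp) at 500 bp or more. Those without a strand had medians of 743 bp and 568 bp in these ranges, the longer of which held 25 clusters only.

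**Figure D3:**
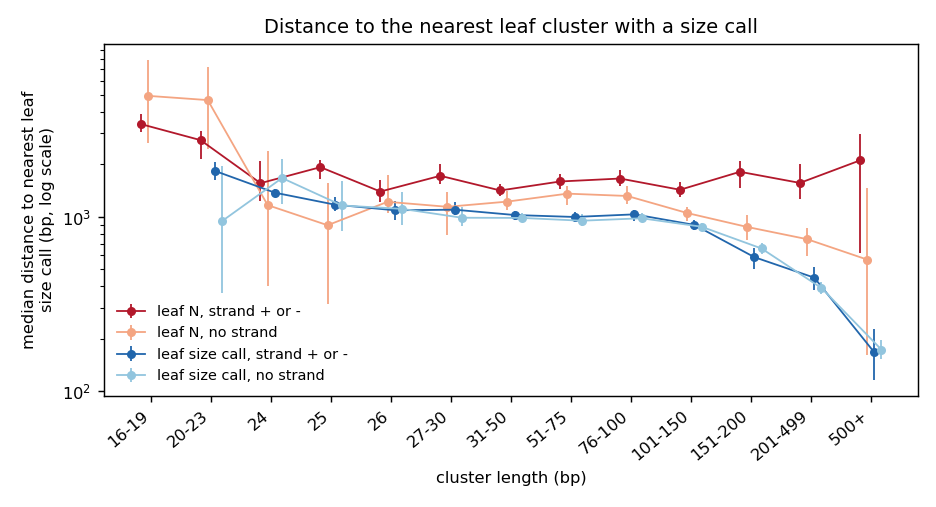
Median distance in bp (vertical axis, log scale) to the nearest leaf cluster with a size call, by cluster length in bp (horizontal axis), for N clusters and clusters with a size call, each with and without a strand; error bars are 95% intervals of the median, and groups under 20 clusters are left out. N clusters with a strand stay between 1393 and 2100 bp from 24 bp upward, while clusters with a size call drop to 167 and 173 bp at 500 bp or more.

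The 3 N clusters farthest from a size call on chromosomes 1 to 19 were short and had no EC cluster on them. They were chr5:12779069-12779108 (40 bp, plus strand, 103201 bp away), chr14:15060694-15060718 (25 bp, plus strand, 95444 bp away) and chr6:9945570-9945628 (59 bp, no strand, 86076 bp away). Each also lay over 100 kb from the next N cluster, so they were isolated from leaf clusters of any class.

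The size call nearest to an N cluster was 24 nt in 75.3% of cases, 21 nt in 10.1%, 23 nt in 8.44%, 22 nt in 3.18% and 20 nt in 2.97%. In the list of all leaf clusters with a size call these classes made up 78.6%, 8.97%, 8.25%, 2.47% and 1.69%. N clusters therefore had much the same neighbours as the list as a whole, with slightly fewer of 24 nt. When leaf clusters of all classes were searched, the nearest one was itself N for 29.4% of N clusters (32.5% with a strand, 25.01% without), against 21.7% of clusters with a size call.

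Neighbouring N clusters lay mostly on the same strand. Where both had a strand, the nearest N cluster of an N cluster was on the same strand in 269 of 297 cases within 100 bp (90.6%, interval 86.7 to 93.6%) and in 1255 of 1490 cases within 500 bp (84.2%, 82.3 to 86.0%). Between an N cluster and its nearest size call within 500 bp, the share was 60.5% (1108 of 1831), and between 2 clusters with a size call it was 55.9% (3982 of 7122). For N neighbours the share was 66.9% above 500 and up to 2000 bp, 52.9% from there to 10 kb and 48.7% beyond 10 kb. Strand was thus shared locally among N clusters, and to a lesser degree with or between clusters with a size call. To the nearest size call of any class within 500 bp, it was shared by 61.9% of 21 nt clusters and 54.6% of 24 nt clusters. Pairs within a single size class were not compared. A pair of clusters that are each other's nearest neighbour counts once from each side.

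**Figure D4:**
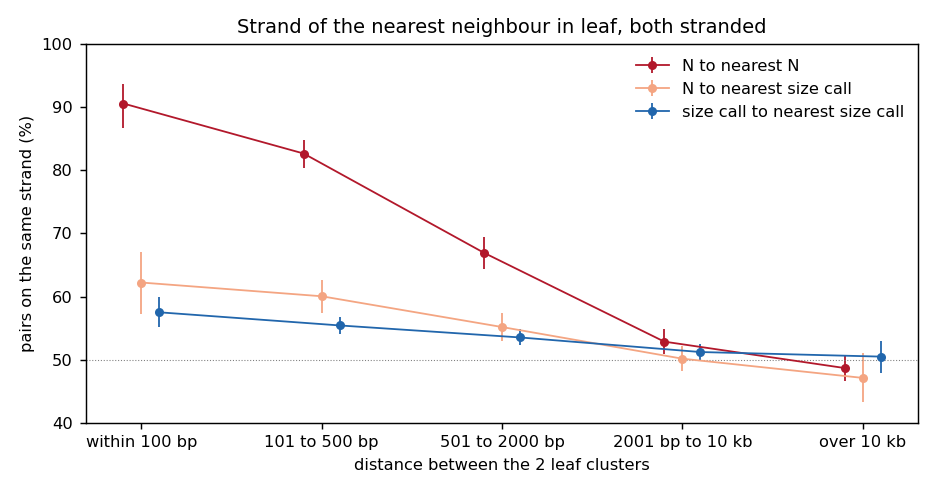
Percentage of neighbour pairs on the same strand (vertical axis) by the distance between the 2 leaf clusters (horizontal axis), where both have a strand, for an N cluster and its nearest N cluster, an N cluster and its nearest size call, and a cluster with a size call and its nearest size call; error bars are exact binomial 95% intervals and the dotted line marks 50%. The N pairs stand at 90.6% within 100 bp and 48.7% over 10 kb, and both other kinds reach at most 62.2%.

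Some N clusters came in rows with no size call between them. Of all N clusters, 3113 (14.5%) stood in 1362 runs of at least 2 with gaps of at most 500 bp, and 86 runs had at least 4. Of the clusters with a size call, which are more numerous, 36.5% stood in such runs with no N cluster between them. Of the 5 longest runs, picked after their values were seen, 3 were nearly or wholly of 1 strand. Run chrUn:17206483-17210141 had 10 clusters, 9 on the plus strand and 1 with none, and run chr10:4634002-4635926 had 9, all on the minus strand. An EC cluster overlapped every cluster of both runs. In run chr11:492235-494164, all 8 clusters were on the plus strand and EC clusters overlapped 2 of them. Run chr9:21156986-21159974 was mixed, with 2 plus, 2 minus and 4 with no strand, and run chrUn:17199184-17201452 had 3 minus and 4 with no strand.

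The EC list was then searched for clusters overlapping those of leaf by at least 1 bp. An EC cluster overlapped 36.3% of the N clusters (7779, interval 35.6 to 36.9%), against 42.6% of the leaf clusters with a size call (42.2 to 42.9%) and 41.1% of all leaf clusters. The 24 nt class stood at 46.0% and the 21 nt class at 25.3%. In leaf tissue and callus alike, fewer cells making a small RNA and less of it per cell cannot be told apart. From the other side, leaf clusters overlapped 15.99% of the EC N clusters and 16.1% of the EC clusters with a size call.

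Overlap was found for 34.6% of N clusters with strand + or - (33.8 to 35.5%), against 38.5% with no strand (37.5 to 39.5%). Leaf clusters with a size call had the same order, at 40.6% with a strand and 45.0% without, so it was not particular to N. For N clusters this ordering changed with length. Of 13 length bins, the share with a strand was the higher in 7 and the lower in 6. Weighted over the bins the difference was 0.75 percentage points, without an interval, in place of -3.81. Bins up to 25 bp, with 36 to 81 clusters without a strand each, were among the 7, and above 30 bp the difference was -2.20 points (-3.65 to -0.76). When EC clusters had to cover at least 0.5 of the leaf cluster it was 1.54 points, with 27.5% of N clusters with a strand and 25.97% without. The order of clusters with a size call was then turned round as well, at 32.4% with a strand and 29.9% without. Longer clusters were overlapped more often, the median length being 80 bp for N clusters with an EC partner and 59 bp for those without.

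What overlapped the N clusters in EC differed by strand. Each leaf cluster was paired with the EC cluster of longest overlap, here called its EC partner. The partner was itself N for 39.0% of the N clusters with a strand that had one, against 18.0% of those with no strand, a difference of 20.96 percentage points (interval 19.01 to 22.9). It was N for 9.66% of the leaf clusters with a size call, with 9.67% for those with a strand and 9.65% for those without, and for 13.9% of all leaf clusters with a partner. Over all lengths together, a strand thus went with an EC partner of class N among the leaf N clusters, though not at every length. It made no such difference among clusters with a size call.

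Over all N clusters with a partner, 29.6% of the partners were N (2304, interval 28.6 to 30.6%) and 64.3% were 24 nt (5002). Partners of 23, 21, 22 and 20 nt came to 2.42, 1.93, 1.003 and 0.733%. Partners of 24 nt made up 55.1% for N clusters with a strand and 75.7% for those without, against 83.9% for clusters with a size call. A 24 nt partner was thus the most frequent in all 3 groups, and an N partner was more frequent for N clusters, with or without a strand, than for clusters with a size call. Of the 5143 EC N clusters that a leaf cluster overlapped, 44.0% had a leaf N partner. That share was 20.9% of all overlapped EC clusters (7658 of 36707) and 16.9% of those of 24 nt.

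The share of N partners was highest at both ends of the length range. For N clusters of 16 to 19 bp it was 85.1% (172 of 202, interval 79.5 to 89.8%), and 100 of these 172 EC clusters were at most 19 bp themselves, for which N is the only call. For N clusters of 20 to 23 bp it was 70.6%, against 19.3% for clusters with a size call of that length. At 25 and 26 bp it was only 19.4%, against 8.73% for clusters with a size call. Among these N clusters it was 18.9% with a strand (interval 15.5 to 22.6%) and 25.5% without (13.9 to 40.3%). The higher share with a strand was thus not seen at these lengths, where only 47 clusters without a strand had a partner. At 500 bp or more the share of N partners was 63.9% (39 of 61), against 7.49% (34 of 454) for clusters with a size call. Of the 83 N clusters this long, 17 lay on chrUn, against 1573 of all 21458 N clusters. Over all lengths, 42.3% of the EC partners of N clusters on chrUn were N, against 28.7% on chromosomes 1 to 19. From 24 bp to under 500 bp, where cluster length alone does not force a call, the share was 35.8% for N clusters with a strand and 17.8% for those without.

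**Figure D5:**
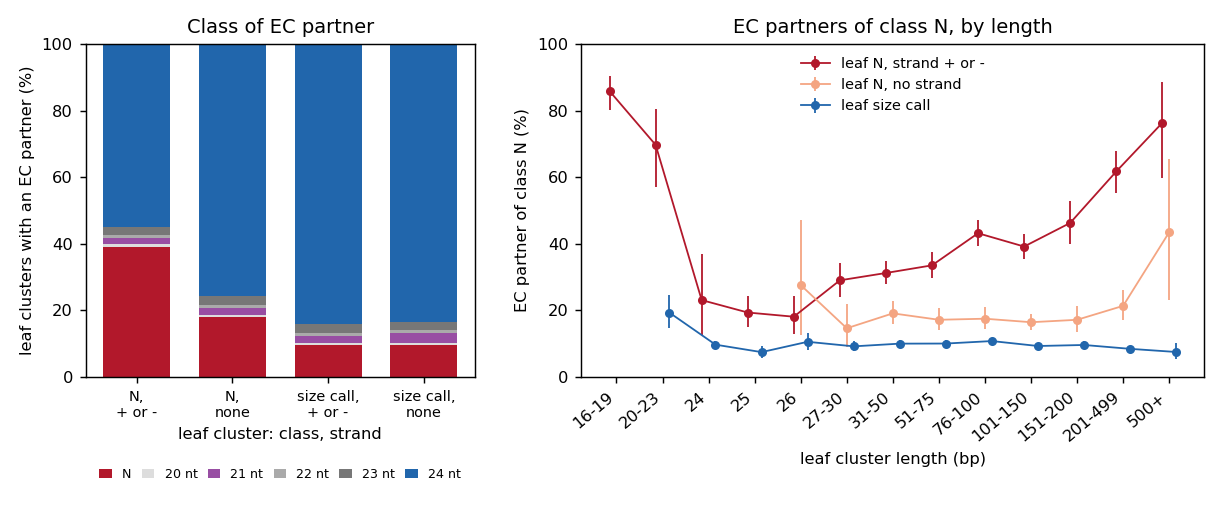
Left, the class of the EC partner as a percentage of leaf clusters that have one (vertical axis), for leaf N clusters and leaf clusters with a size call, each with and without a strand; right, the percentage of EC partners that are N (vertical axis) by leaf cluster length in bp (horizontal axis) with exact binomial 95% intervals, for groups with at least 20 partners. N partners make up 39.0% for N clusters with a strand, 18.0% for those without and under 10% for clusters with a size call, and the line for N clusters with a strand is highest at 16 to 19 bp and at 500 bp or more.

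Leaf N clusters and their EC N partners were nearly always on the same strand if both had one. Where both had a strand, 1347 of 1377 agreed (97.8%, interval 96.9 to 98.5%). The share was 84.8% (868 of 1024) for leaf N clusters with a 24 nt partner, 91.3% (4731 of 5184) for 24 nt clusters in both tissues, 96.9% (124 of 128, 92.2 to 99.1%) for 21 nt clusters in both and 90.5% for all leaf clusters. It was 98.95% for leaf N clusters of 16 to 23 bp, 96.4% at 24 to 30 bp, 97.9% at 31 to 99 bp and 97.5% from 100 to under 500 bp. In the longest group, all 27 pairs were on the same strand, as were all 37 pairs of a size-called leaf cluster with a 24 nt EC partner. Where both clusters of an N pair had a strand, it was therefore the same in at least 96.4% of cases in each of these length ranges.

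For leaf N clusters, the partner also had a strand more often where it was N. It had one for 82.1% of the leaf N clusters with a strand and an EC N partner, against 43.2% where the partner was 24 nt. For leaf N clusters with no strand these shares were 46.6% and 33.5%. For leaf 24 nt clusters with a strand there was no such gap, as 44.6% of their N partners and 47.1% of their 24 nt partners had one.

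Some N clusters had the very same edges in leaf and EC. Both edges were identical in 125 of the 2304 N pairs (5.43%), against 19 of the 5002 pairs of leaf N with EC 24 nt (0.380%) and 1.35% of the pairs that were 24 nt in both. Most of the 125 were very short. Among N pairs with a leaf cluster of at least 24 bp, 46 of 2084 were identical (2.21%, interval 1.62 to 2.93%). At 16 to 19 bp, 73 of 172 pairs were identical (42.4%, interval 35.0 to 50.2%).

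The EC partner also went with length, strand and distance. The 2304 N clusters with an EC N partner had a median length of 81 bp, a strand in 72.8% and a median distance of 2235 bp to a size call. The 5002 with a 24 nt partner had a similar length, 79 bp, but a strand in 47.3% and a distance of 923 bp, like that of the clusters with a size call. The 13679 with no EC cluster (63.7% of all N clusters) were shorter, with a median of 59 bp, a strand in 59.3% and a distance of 1588 bp.

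Of the 58 N clusters of at least 500 bp with a strand, 38 were overlapped in EC (65.5%, interval 51.9 to 77.5%), against 23 of the 25 with no strand (92%, 73.97 to 99.02%). Among clusters with a size call of that length the share was 79.2% (454 of 573). Their order by strand was the other way, at 91.3% with a strand and 76.2% without. The median cover of the N clusters by EC clusters was 43.2% with a strand and 45.7% without. The 3 longest N clusters with a strand lay nearly whole within EC N clusters. The longest was chr13:11911509-11914334, 2826 bp on the minus strand, 1879 bp from the nearest size call. A single EC N cluster of 2823 bp on the minus strand covered 99.6% of it, at chr13:11911501-11914323. The next, chrUn:1135274-1136888 (1615 bp, minus), lay wholly inside an EC N cluster of 2770 bp on the minus strand, which started at the same base. The third, chr2:18714559-18715893 (1335 bp, minus), was 99.4% covered by an EC N cluster of 2902 bp on the minus strand, and its nearest size call was 27967 bp away. The same EC cluster also held chr2:18716304-18717420 (1117 bp, minus), a leaf N cluster named here after its values were seen.

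Of the other 2 among the 5 longest with a strand, chr13:3889099-3890399 (1301 bp, minus) was 84.0% covered by 2 EC N clusters, the larger of which had no strand. In contrast, chr15:231805-233065 (1261 bp, plus) had 3 EC clusters of 24 nt covering 23.5% of it and no EC N cluster.

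The 5 longest N clusters with no strand were covered to between 0 and 62.2%. No EC cluster lay on chrUn:40926748-40928541 (1794 bp), the longest of them, although one was found 183 bp away and a leaf size call 99 bp away. On chr18:7187428-7188931 (1504 bp) 3 EC N clusters and 1 of 24 nt covered 59.1%, and on chr9:21158543-21159671 (1129 bp) 4 EC N clusters covered 62.2%. The other two, chr1:4696477-4697438 (962 bp) and chrUn:42419665-42420529 (865 bp), were covered to 41.8% and 45.7% by a mix of N and 24 nt clusters, with a 24 nt partner each.

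After the chrUn cluster, the longest N clusters without an EC cluster were both on the plus strand of chromosome 14, at chr14:24673875-24675003 (1129 bp) and chr14:24687601-24688511 (911 bp). The nearest EC clusters were 2570 and 5797 bp away. These loci gave long N clusters on 1 strand in leaf with nothing called on them in EC.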

How the data were processed

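According to the study's methods, the authors trimmed and size-filtered reads, removed those from tRNA, rRNA and miRNA, mapped the rest to the 12X assembly with ShortStack and built clusters per library. Minimum coverage and padding were not given in the sources used here. Multi-mapped reads and a minimum coverage affect where clusters start, end and split. The deposited values were other than expression values, namely start, end, strand and DicerCall per cluster. The score column was empty (0 scores), so depth per cluster is unknown.

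Coordinates were compared in Python 3.11.15 with pandas 2.3.3, numpy 2.4.6 and SciPy 1.17.1. Distance is the gap between edges, overlap required 1 bp, and the longest overlap defined the partner. Windows of 1 Mb were assigned by midpoint. The largest cluster end of both lists served as chromosome length. Shares have Clopper-Pearson intervals and differences of shares Newcombe intervals. The code was tested on simulated clusters.

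The clusters, groups and length ranges were chosen with earlier results of these data known. Regions named were the 5 longest with and without a strand, the 3 longest with an EC N partner and with no EC cluster, the 3 farthest from a size call, and the 5 windows with most N clusters. Alternatives changed the sequences, cluster lengths, overlap, partner, merging, chromosome parts and neighbour class. Gene and sequence context was not analysed here, as the gene table at hand belongs to another assembly.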

Additional observations from a re-analysis of the deposited data

Results flagged for a closer look

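The contrast between clusters with and without a strand had opposite signs in the 2 tissues. This held for an overlap of 1 bp or more without weighting by length. An EC cluster overlapped leaf N clusters with a strand less often than those without, by -3.81 percentage points (34.6% against 38.5%), whereas a leaf cluster overlapped EC N clusters with a strand more often than those without, by 3.59 points (17.8% against 14.2%). The difference between the tissues was not tested, as there was 1 library of each. The leaf contrast changed sign with the overlap required and with weighting by length, and the EC contrast was not examined in these ways. Leaf clusters with a size call had the same order as leaf N clusters, with 40.6% overlapped with a strand and 45.0% without. The order in leaf was thus not particular to N.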

How the results depend on the processing

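Of 48 alternative values, 23 moved by less than the counting interval, 23 moved by more and 2 reversed. The reversed value was the difference in EC overlap between N clusters with and without a strand (-3.81 points), which became 1.54 with 0.5 of the leaf cluster covered and 0.747 within length bins. The cause was not tested.

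With clusters longer than 30 bp only, the N share was 25.04%, the share with a strand 50.4%, the difference in median length -14 bp, the EC overlap 35.5% and its difference by strand -2.20 points. The outer chromosome parts then differed by 1.73 points with strand, with an interval above 0. With leaf clusters of at least 100 bp, the same shares were 22.1%, 42.6% and 46.0%, the difference in overlap by strand was -0.76 points, with an interval that includes 0, and N minus size call -7.10 points. There the outer chromosome parts differed by 2.97 points with strand, with an interval above 0, and N partners by 27.9 points. With chromosomes 1 to 19 only, EC overlap was 35.4%, and N minus size call -7.11 points.

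With 0.5 of the leaf cluster covered, EC overlap was 26.9%, N minus size call -4.40 points (-6.31 as reported), N partners 31.6%, their difference by strand 23.02 points and same-strand pairs 98.6%. Merging clusters of 1 class within 500 bp gave an N share of 25.8%. To the nearest 24 nt cluster, the median distance differed by 1040 bp with strand, against 549 bp to any size call. In leaf clusters from 24 bp to under 500 bp, a range chosen after seeing the data, N partners were 27.5%, and their difference by strand 18.0 points.

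The planned 10-part split covers the same sequence as the 5 parts, so 1 outer part of 10 on each side was added after seeing the data (1.14 points). No paired analysis was possible because neither list had replicates. Without reads per cluster, a cluster of few reads counts like a deep one, and a locus not called in EC may lie below its coverage minimum.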

Other observations

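The N clusters of EC showed the contrasts by strand in the same direction as those of leaf in 4 measures. The difference between clusters with a strand and those without was -36 bp in leaf and -35 bp in EC for median length, and 549 bp in leaf and 236.5 bp in EC for median distance to a size call. For the outer chromosome parts it was 1.10 points in leaf and 3.76 points in EC, and for N partners in the other tissue 20.96 points in leaf and 28.5 points in EC. The N partner values share their pairs of clusters and are not independent of each other.

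On chrUn, 42.3% of the EC partners of leaf N clusters were N (interval 38.6 to 46.0%), against 28.7% on chromosomes 1 to 19 (27.7 to 29.8%) and 16.97% on the random sequences (12.2 to 22.6%). Over the 19 chromosomes the share was between 23.8 and 37.4%. The window of highest N share lay on chrUn from 1 to 2 Mb, where 51 of 117 leaf clusters were N (43.6%), and it holds the second longest N cluster with a strand.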
